A study of Mus musculus with 33 samples.

Results

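The genes described here are collagens and other extracellular matrix genes of the mouse thymus, taken as a list of 50 gene symbols with every probe set of those symbols. Of these, 48 had a probe set on the array, 107 probe sets in all, and Fbn1 and Efemp2 were not analysed here. After a filter on low signal 46 genes (83 probe sets) were tested, out of 13463 genes tested in all. Col8a1 and Mfap4 did not pass, with mean signals of at most 56.8 and 8.67 in any group. The probe set with the strongest mean signal stands for each gene.

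RNA from male C57BL6 mice aged 4 to 6 weeks was measured on 33 arrays in 7 groups. Microdissected tissue gave 23 arrays: subcapsular, central and perimedullary cortex with 3 each, and whole cortex and whole medulla with 7 each. Sorted cells gave 10 arrays, 5 of cortical thymocytes (CD45+ cells with no or low CD3 that carry CD90 or CD117) and 5 of medullary thymocytes (CD45+ and high in CD3). These n hold for every mean ± SD, which is given in linear array signal. The titles call the arrays biological replicates, and nothing ties a dissected region to an animal, so regions may share animals, p-values over regions may then be too small, and where replicates are technical they measure only that spread. Median signals lay between 71.9 and 163, and 13 arrays had a wide upper tail, with the top 0.1% of signals above 42000: arrays 1 to 5 of whole cortex, 1 to 5 of whole medulla and 1 to 3 of the sorted medullary cells. The markers followed the labels: Aire, of medullary epithelium, averaged 2330 in medulla and 25.3 in whole cortex, and Psmb11 and Prss16, of cortical epithelium, fell from cortex to medulla. Parathyroid hormone gave signals of 932 and 830 on whole cortex arrays 2 and 7.

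The thymus is wrapped in a collagenous capsule from which septa run inward, and stromal cells beneath it lie on a basement membrane. The deep cortex is packed with thymocytes around a sparse epithelial mesh. The medulla holds larger vessels, perivascular spaces and more fibroblasts. Fibrillar collagens give tensile strength, type IV collagen and laminins build basement membranes, small leucine-rich proteoglycans bind collagen fibrils, and matricellular proteins such as periostin and tenascin C modulate adhesion.

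To show the genes with the largest differences, the promoter windows of 2 genes from each of the capsule-side and medullary comparisons are printed, chosen after their values were seen. They come from the RefSeq promoter table (GRCm38.p6), read 5′ to 3′ on the gene's strand, and run from 250 bases before to 50 bases after the start. Ogn and Efemp1 had the largest subcapsular minus central differences among the genes in that table (Efemp1 was also higher in medulla), and Postn and Timp1 the largest medulla minus cortex differences. Capitals mark matches on either strand to the TATA box (TATAAA), the box known as CCAAT, the GC box (GGGCGG) or the AP-1 motif with any central base (TGANTCA), and in Ogn a forward and a reverse TATAAA overlap. The windows lie at chr13:49607765-49608064 (Ogn), chr11:28852955-28853254 (Efemp1), chr3:54359017-54359316 (Postn, the first of 2 starts in the table) and chrX:20869916-20870215 (Timp1), all on the + strand.
Ogn: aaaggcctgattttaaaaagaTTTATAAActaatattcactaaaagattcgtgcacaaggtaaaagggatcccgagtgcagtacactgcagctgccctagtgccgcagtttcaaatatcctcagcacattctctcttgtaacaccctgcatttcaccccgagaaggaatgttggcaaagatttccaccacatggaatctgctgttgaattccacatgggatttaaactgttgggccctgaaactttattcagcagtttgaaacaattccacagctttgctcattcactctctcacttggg
Efemp1: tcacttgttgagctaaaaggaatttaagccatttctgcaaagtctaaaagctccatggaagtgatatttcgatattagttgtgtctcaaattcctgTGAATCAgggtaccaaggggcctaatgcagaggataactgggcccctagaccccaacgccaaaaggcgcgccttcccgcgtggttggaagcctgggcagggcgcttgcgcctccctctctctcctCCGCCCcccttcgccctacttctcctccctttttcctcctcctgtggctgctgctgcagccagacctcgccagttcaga
Postn: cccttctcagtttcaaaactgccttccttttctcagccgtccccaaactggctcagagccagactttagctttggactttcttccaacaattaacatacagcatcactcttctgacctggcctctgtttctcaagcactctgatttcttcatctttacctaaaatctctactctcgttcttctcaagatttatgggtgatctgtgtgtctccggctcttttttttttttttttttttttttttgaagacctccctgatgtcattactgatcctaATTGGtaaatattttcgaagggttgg
Timp1: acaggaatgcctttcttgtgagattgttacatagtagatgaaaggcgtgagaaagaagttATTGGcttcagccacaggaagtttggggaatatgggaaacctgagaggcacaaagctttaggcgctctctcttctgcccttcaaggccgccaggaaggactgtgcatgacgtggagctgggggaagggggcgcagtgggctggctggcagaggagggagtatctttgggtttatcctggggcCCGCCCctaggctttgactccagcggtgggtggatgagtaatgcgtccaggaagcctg

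Each letter motif is short and common. Of the 27025 genes in the table, 14.2% had TATAAA, 37.9% CCAAT, 35.9% GGGCGG and 7.93% TGANTCA in the window. Of the 33 matrix genes with a window, 3 had TATAAA, 11 CCAAT, 23 GGGCGG (69.7%) and 2 TGANTCA. Among the 9 with a window that were higher in subcapsular than in central cortex, TATAAA was found in 2 (22.2%) and GGGCGG in 6 (66.7%). Among the 14 that were higher in medulla and not called on the capsule side, TATAAA was found in 1 (7.14%) and GGGCGG in 10 (71.4%). A match is a run of letters and not a measured binding site.

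Of the 3 parts of the cortex, the central one was lowest for most matrix transcripts. A set of them was higher at the capsule side and a larger set in the medulla. A gene was called when its limma adjusted p was below 0.05 and its log2 fold change at least 1 in size. Between subcapsular and central cortex 15 of 46 matrix genes were higher and 0 lower, where 0.847% of all genes were higher and 0.446% lower (median log2 fold change 0.61 against 0.011 for all genes). Between whole medulla and whole cortex 27 were higher and 2 lower, where 18.5% of all genes were higher and 5.38% lower (medians 1.11 and 0.11). In bulk tissue, fewer cells of a type and less RNA per cell cannot be told apart.

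These counts include genes that passed the filter through the medulla alone, Lama4 and Nid2, which had to be higher there. Timp1 also needed the medulla to pass, being above the median on 7 medulla arrays, 1 whole cortex array and no others. Without any filter all 48 genes gave the same 15 and 0, and the same 27 and 2. The subcapsular arrays lay wholly above the central arrays for 25 matrix genes and wholly below for 3, where 21% of all genes lay above and 17.8% below. The medulla arrays lay wholly above the whole cortex arrays for 23 and wholly below for 2 (19% and 10.9% of all genes). The central cortex had the lowest mean of the 3 cortical parts for 32 genes (69.6%; 24.8% of all genes). All central arrays lay below all arrays of both edges for 13 genes (28.3%; 3.18% of all genes): Col1a1, Col1a2, Col3a1, Col5a2, Col6a1, Col6a2, Col18a1, Lamb1, Dcn, Fmod, Efemp1, Pcolce and Lox. For some of these the probe sets that passed differed in direction. Perimedullary minus central, 2 of 5 shared it for Fmod and 1 of 2 for Col3a1, and subcapsular minus central, 1 of 2 for Lox. Over the 5 dissected groups the medulla had the highest mean for 35 genes, the subcapsular cortex for 8 and the whole cortex for 3 (all genes: 38.2%, 17.8% and 20.4%).

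**Figure D1:**
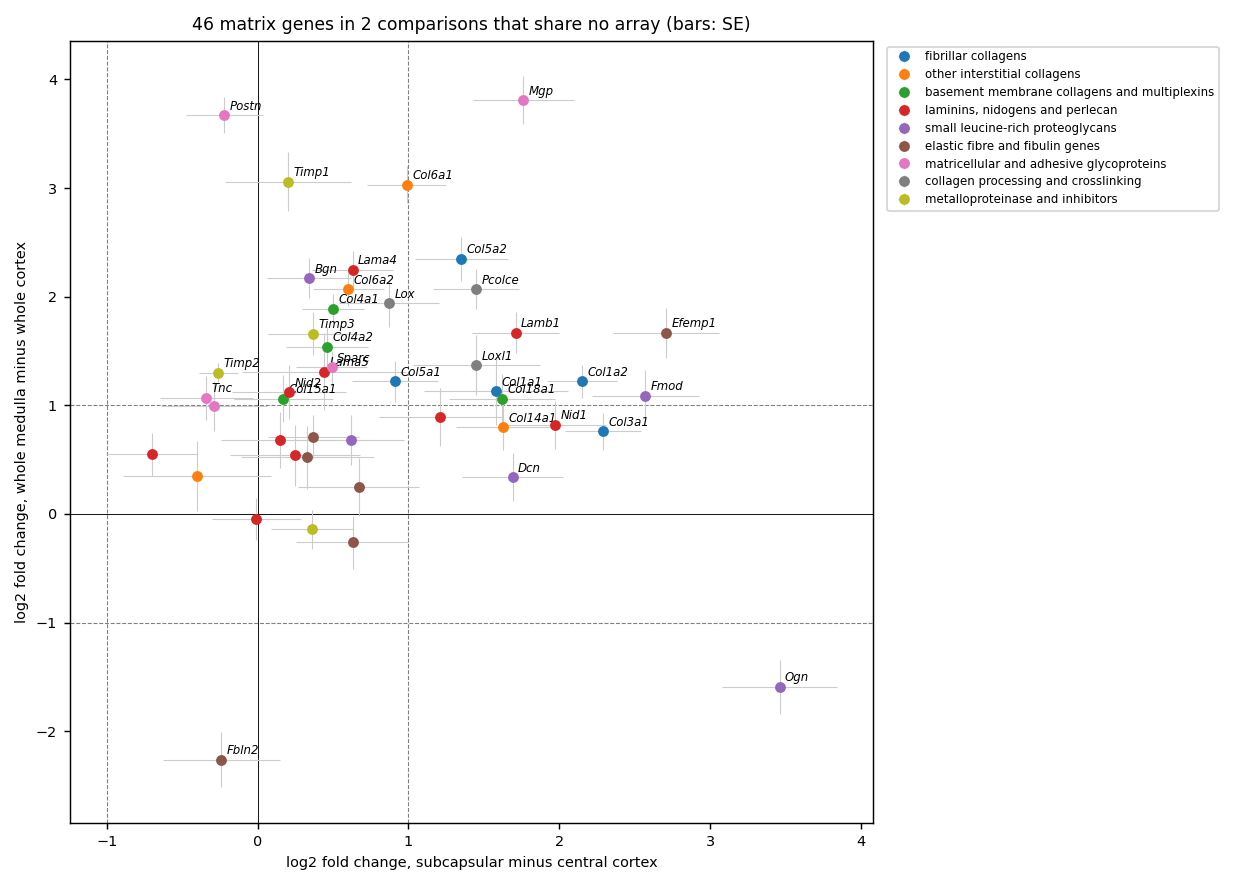
Log2 fold change of 46 matrix genes, subcapsular minus central cortex on the x axis and whole medulla minus whole cortex on the y axis, with SE bars and colour by role; dashed lines mark a log2 fold change of 1 and names are given for genes called in either comparison. The upper right corner holds the 10 genes called higher in both, Mgp and Postn are highest on the y axis, Postn and Timp1 with x values near 0, and Ogn stands alone at the lower right.

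The comparisons of subcapsular with central cortex and of medulla with whole cortex share no array, so their calls can be set side by side. Higher in both were 10 genes, Col1a1, Col1a2, Col5a2, Col18a1, Lamb1, Fmod, Efemp1, Mgp, Pcolce and Loxl1, which is 66.7% of the 15 and 37% of the 27. Over all genes 52 were higher in both, 45.6% of the 114 higher on the capsule side and 2.09% of the 2492 higher in medulla. Col3a1, Col14a1, Nid1 and Dcn were called on the capsule side only, and 17 genes in the medulla only. Ogn was higher on the capsule side and lower in medulla, Fbln2 was lower in medulla only, and 13 genes were called in neither.

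**Figure D2:**
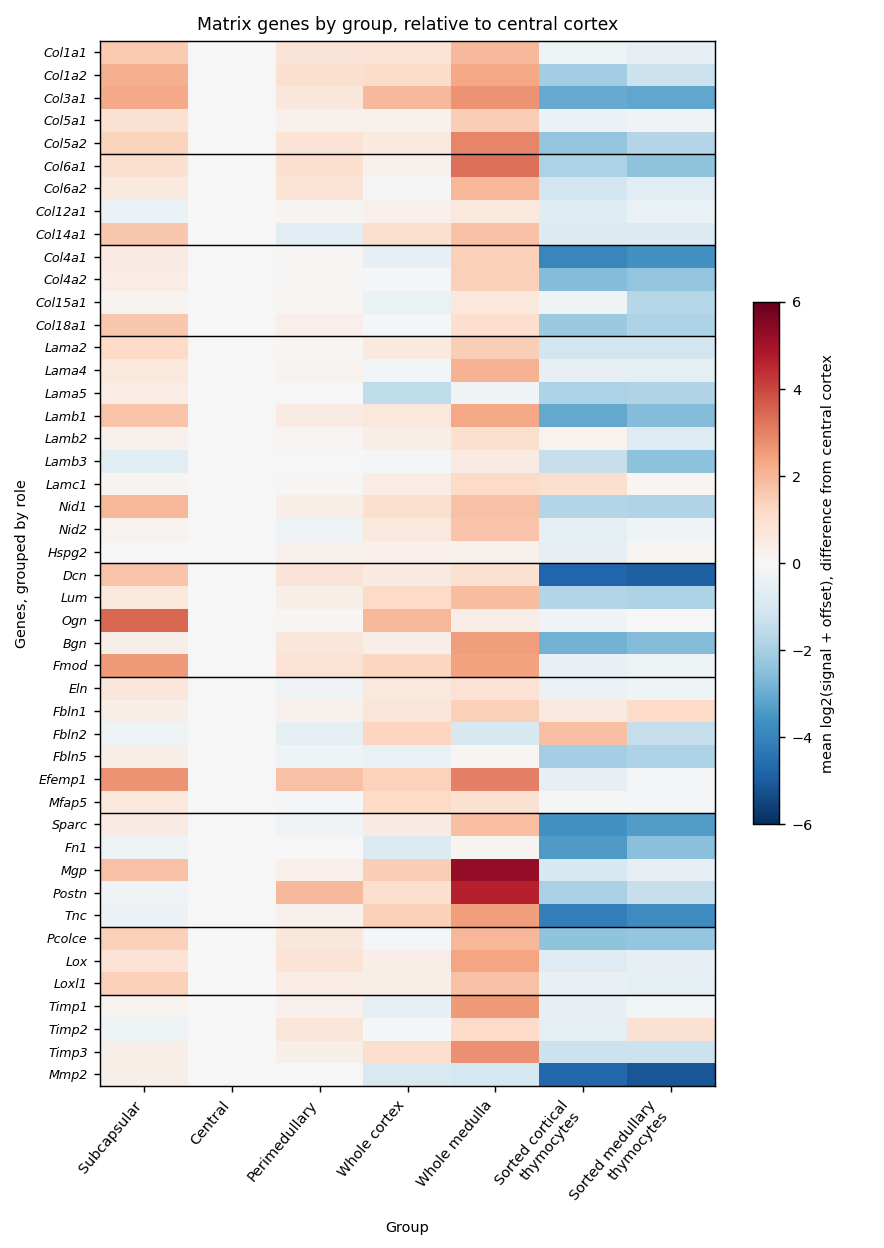
Mean log2(signal + offset) of 46 matrix genes (rows, grouped by role with black lines between groups) in 7 groups of arrays (columns), as the difference from the gene's own mean in central cortex. The subcapsular column is above 0 for 38 of the genes, and Mgp and Postn in whole medulla are among the darkest cells.

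Fibrillar collagens, the rope-forming collagens of capsule and vessel walls, were higher at the capsule in 4 of 5 genes and higher in medulla in 4 of 5. Col3a1, the chain of type III collagen, had signals of 2570, 1880 and 2090 on the subcapsular arrays and of 395, 380 and 503 on the central arrays. The groups did not overlap, and the log2 fold change was 2.29 (SE 0.254, adjusted p = 1.6e-07), or 1.19 with plain-suffix probe sets (names ending in _at with no letter before it). In medulla it ran from 2360 to 3440 (median 3000) and in whole cortex from 1210 to 2680 (median 1470), overlapping ranges with a difference of 0.76 that was under the size set for a call.

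Col1a2, a chain of type I collagen, had signals of 1750, 1110 and 1190 on the subcapsular and of 263, 274 and 302 on the central arrays. No array of one group reached the other, and the difference was 2.15 (SE 0.233, adjusted p = 1.2e-07). Its medullary signal ran from 1210 to 1940 and its whole cortex signal from 435 to 965, a difference of 1.22 (SE 0.152, adjusted p = 1.1e-08); with the mean of its probe sets it was 0.92, and with plain-suffix probe sets 0.61. Col1a1, the other type I chain, gave weaker signals, 141 ± 28.5 in subcapsular and 32.7 ± 22.4 in central cortex, a difference of 1.58 (adjusted p = 0.036). That call was lost when any of subcapsular arrays 1, 2 and 3 or central arrays 1 and 2 was left out (adjusted p 0.076 to 0.21), and its medullary call (1.13) when whole cortex 2 was (0.87).

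Type V collagen, which seeds and limits fibril width, leaned to the medulla. Col5a2 had signals of 402, 434 and 381 on the subcapsular arrays, 171, 130 and 132 on the central arrays, and 1060 to 1570 (median 1200) in medulla against 114 to 349 (median 275) in whole cortex. Each pair of groups was fully apart, with differences of 1.35 (SE 0.309, adjusted p = 0.0045) and 2.35 (SE 0.202, adjusted p = 2.1e-12). Col5a1 was called in medulla alone, 344 ± 102 against 134 ± 43.4 (difference 1.22), and its capsule-side difference of 0.91 (adjusted p = 0.045) was just under the size for a call.

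Among the other interstitial collagens, the type VI chains were called in the medulla and type XIV at the capsule side. Col6a1, a chain of the beaded microfibrils around cells, ran from 2100 to 2800 (median 2200) in medulla and from 153 to 349 (median 288) in whole cortex. The ranges were far apart and the log2 fold change was 3.03 (SE 0.172, adjusted p = 2.6e-17). At the edges of the cortex it had 522, 461 and 369 on subcapsular and 485, 394 and 440 on perimedullary arrays against 237, 175 and 230 on central ones. Both edges lay above the centre, and their differences of 0.99 and 0.96 fell just short of the size for a call. Col6a2 was higher in medulla with 1560 ± 150 against 370 ± 130 (difference 2.07).

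Col14a1, a fibril-associated collagen, had signals of 385, 299 and 370 on subcapsular, 146, 97.9 and 58.6 on central and 38.3, 51.8 and 59.2 on perimedullary arrays. Its subcapsular arrays stood above all others of the cortical parts, with a difference of 1.63 from central cortex (adjusted p = 0.00096) and, as perimedullary minus subcapsular, of -2.32 (adjusted p = 1.7e-06). In medulla it averaged 399 ± 89.4 and in whole cortex 218 ± 53.4, a difference of 0.80 that was not called. Col12a1, another fibril-associated collagen, was called in neither of these comparisons and had 48.2 ± 24.8 in subcapsular and 132 ± 51.9 in medullary tissue.

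The basement membrane collagens were higher in medulla in all 4 genes tested, Col4a1, Col4a2, Col15a1 and Col18a1. On the capsule side Col18a1 alone of the 4 was called. Col4a1, which with Col4a2 forms the common type IV network, ran from 1910 to 3350 (median 2590) in medulla and from 556 to 934 (median 694) in whole cortex. The arrays did not overlap and the difference was 1.89 (SE 0.134, adjusted p = 1.2e-14). Col4a2 had a difference of 1.54 (SE 0.178). On the capsule side both were above the central arrays by little, 0.50 and 0.46, and not called. For Col4a1 only 1 of the 2 probe sets that passed had this direction.

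Col18a1, whose C-terminal end is endostatin, had 530, 628 and 450 on subcapsular, 150, 145 and 173 on central and 178, 208 and 209 on perimedullary arrays. The subcapsular arrays were the highest of all dissected groups, 1.62 above central cortex (SE 0.35, adjusted p = 0.0026), with medulla at 338 ± 38.4. Its medulla minus cortex difference of 1.06 fell to 0.79 without whole cortex 4, an array with a signal of 30.3. Col15a1, the other multiplexin, averaged 423 ± 73.2 in medulla and 208 ± 106 in whole cortex (difference 1.06), and this call was lost without whole cortex 2 (0.92), whole cortex 5 (0.91) or whole medulla 4, and on the arrays without a wide upper tail (0.34).

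Laminins, nidogens and perlecan, which cross-link the basement membrane and bind cells to it, split by chain. Of 10 genes tested, 2 were higher on the capsule side (Lamb1 and Nid1) and 4 in medulla (Lama4, Lama5, Lamb1 and Nid2). Lama4 and Nid2 passed the filter through the medulla alone and had to be higher there. Lamb1, the beta-1 chain, had 861, 1020 and 1030 on subcapsular and 287, 245 and 306 on central arrays. In medulla it ran from 1110 to 1760 (median 1540) and in whole cortex from 228 to 771 (median 452). It was apart in both pairs, by 1.71 (SE 0.286, adjusted p = 0.00018) and 1.67 (SE 0.187, adjusted p = 1.2e-09). With the mean of its probe sets the capsule-side difference was 1.02.

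Nid1, the link between laminin and type IV collagen, had 566, 375 and 429 on subcapsular, 124, 67.9 and 101 on central and 177, 112 and 114 on perimedullary arrays. The subcapsular arrays lay above all the others, by 1.97 over central cortex (SE 0.337, adjusted p = 0.00023). Its medulla mean of 393 ± 50.1 was below that of the subcapsular cortex, with a difference of -0.20 that was not called. Nid2, its paralogue, showed no such edge, 37.7 ± 3.43 in subcapsular and 29.9 ± 12 in central cortex, and averaged 161 ± 35.9 in medulla against 65.7 ± 35 in whole cortex (difference 1.12, 0.93 without whole cortex 5 and just below 1 without whole cortex 2).

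Lama4, the alpha chain typical of vessel walls, ran from 158 to 241 in medulla and from 11 to 38.8 in whole cortex, a difference of 2.25 (SE 0.175, adjusted p = 1.4e-13). Because Lama4 passed the filter through the medulla alone, it had to be higher there, and its adjusted p is not support. No whole cortex signal of Lama4 was above the array median, so the size of the difference depends on the offset. Lama5, an epithelial and vascular alpha chain, was variable, 233 ± 97.7 in medulla and 92.9 ± 80.1 in whole cortex with overlapping arrays (difference 1.31). Its highest mean, 367 ± 131, was in subcapsular cortex for this probe set. Only 1 of the 2 Lama5 probe sets that passed had this direction against central cortex, and 1 of 2 against medulla. Lama2, the alpha chain of muscle and fibroblast laminin, had 159 ± 46.3 in subcapsular and 63.4 ± 51.2 in central cortex, a difference of 1.21 that missed the call (adjusted p = 0.063). Lamb3, an epithelial beta chain, ran the other way on the capsule side, at 324, 245 and 329 on subcapsular arrays and 597, 555 and 370 on central ones. All 3 subcapsular arrays were below the central ones, but the difference of -0.70 was not called (adjusted p = 0.19). Hspg2, which encodes perlecan, had means from 428 to 556 over the dissected groups and differences of -0.0077 and -0.043 in the capsule-side and medullary comparisons.

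**Figure D3:**
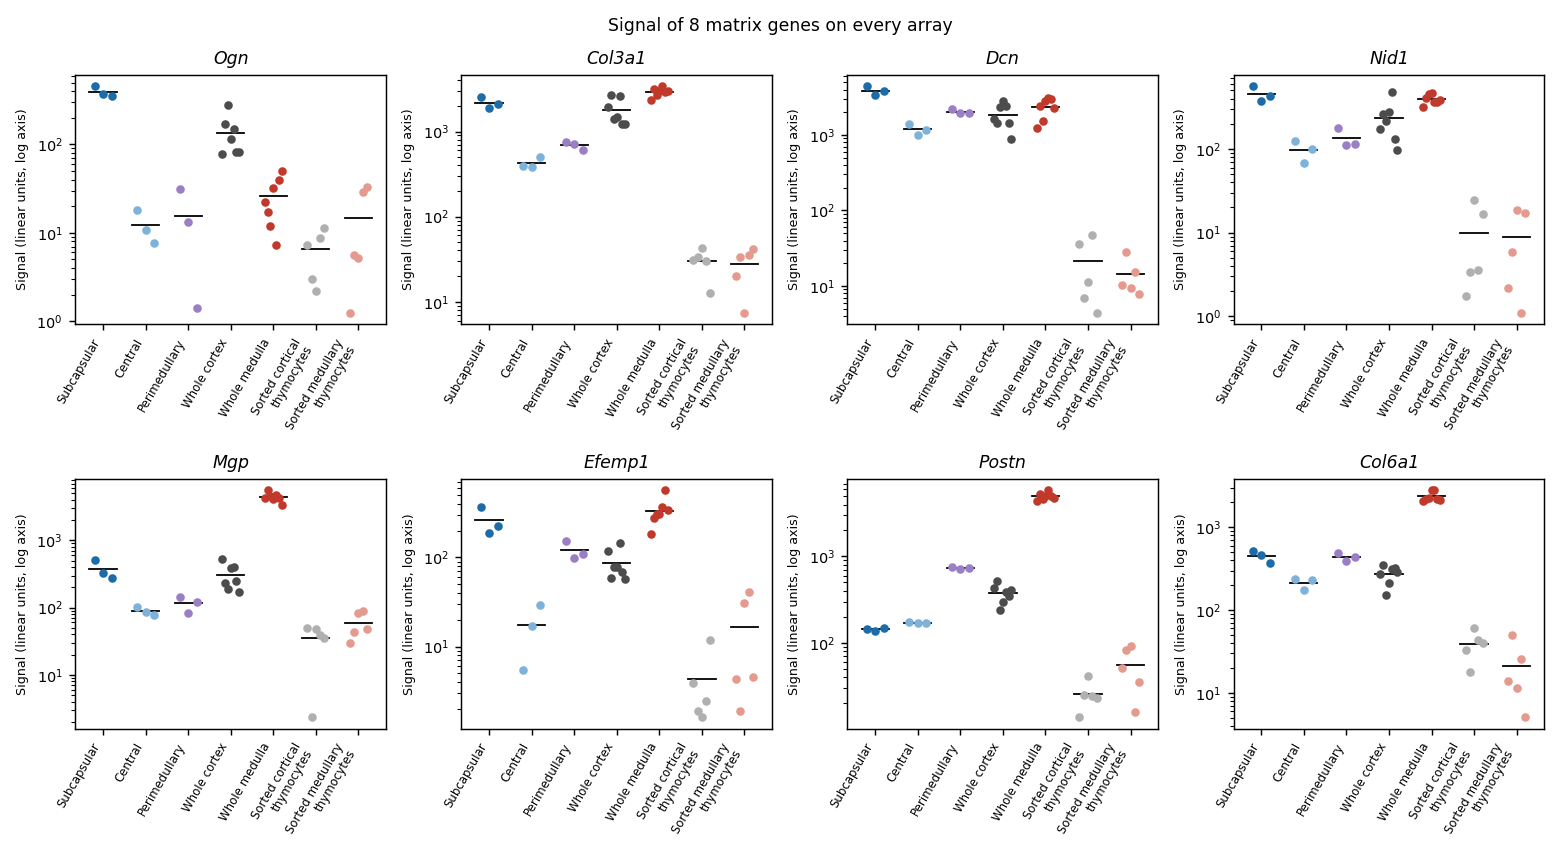
Signal of 8 matrix genes on each of the 33 arrays (points, log axis) by group, with the group mean as a black line. Ogn, Col3a1, Dcn and Nid1 are higher on all 3 subcapsular arrays than on all central ones, while Mgp, Postn and Col6a1 reach their highest signals on the medulla arrays.

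The small leucine-rich proteoglycans held the gene with the largest capsule-side difference and differed among themselves. Ogn, which encodes osteoglycin, had 459, 376 and 351 on subcapsular arrays, 18.2, 10.8 and 7.61 on central ones and 31.7, 13.3 and 1.42 on perimedullary ones. The subcapsular arrays stood alone: every central and perimedullary array was at 31.7 or less. The log2 fold change over central cortex was 3.46 (SE 0.379, adjusted p = 1.4e-07). All central signals were below the array median, so this size depends on the offset. In medulla it ran from 7.26 to 50.1 (median 22.4) and in whole cortex from 78.1 to 277 (median 114), with no overlap and a difference of -1.59 (SE 0.248, adjusted p = 9.2e-07). On the arrays without a wide upper tail that difference was -0.62 and not called.

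Fmod, which encodes fibromodulin, had 215, 240 and 207 on subcapsular, 14.4, 13.1 and 19 on central and 44, 58.4 and 44.6 on perimedullary arrays. All central signals were below the array median, so the size of a difference from them depends on the offset. The difference of Fmod from central cortex was 2.57 (SE 0.353, adjusted p = 8.1e-06), 1.43 with the mean of its probe sets, and 0.97 with plain-suffix probe sets, which ends the call. Its medullary difference of 1.09 was also lost with whole cortex 2, whole cortex 6 (0.99 each) or whole medulla 4 (0.98) left out. Dcn, which encodes decorin, had 4470, 3370 and 3770 on subcapsular, 1410, 1010 and 1150 on central and 2240, 1950 and 1940 on perimedullary arrays. The 3 parts of the cortex were in full order without overlap, and the subcapsular minus central difference was 1.69 (SE 0.333, adjusted p = 0.001).

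Dcn did not separate medulla, 1230 to 3080, from whole cortex, 881 to 2850 (difference 0.34, adjusted p = 0.18). Bgn, which encodes biglycan, the close relative of decorin, had the reverse pattern. It was 348, 343 and 304 on subcapsular and 309, 225 and 240 on central arrays, and ran from 1230 to 2270 (median 1490) in medulla and from 236 to 506 (median 325) in whole cortex. Perimedullary arrays, at 432 ± 33.1, lay above all subcapsular and central arrays. Subcapsular and central arrays overlapped and the compartments did not, with differences of 0.34 (not called) and 2.17 (SE 0.183, adjusted p = 1.2e-12). Lum, which encodes lumican, was called in neither, at 0.62 and 0.68.

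Among the elastic fibre and fibulin genes, Efemp1 rose at both edges of the cortex and in medulla, and Fbln2 fell in medulla; the other 4 tested genes were called in neither comparison. Efemp1, which encodes fibulin-3, had 370, 188 and 225 on subcapsular, 5.49, 17.2 and 29.2 on central and 154, 98.6 and 109 on perimedullary arrays. Central arrays were lower than both edges, by 2.71 against subcapsular (SE 0.351, adjusted p = 2.9e-06) and 1.77 against perimedullary cortex (SE 0.351, adjusted p = 0.0017). All central signals of Efemp1 were below the array median, so these sizes depend on the offset (2.45 to 3.57 and 1.56 to 2.53 over the alternatives). In medulla Efemp1 ran from 183 to 569 (median 308) and in whole cortex from 56.8 to 146 (median 77.8), a difference of 1.67 (SE 0.23, adjusted p = 9.1e-08). Eln, which encodes elastin, averaged 157 ± 64.1 in subcapsular and 86.7 ± 24.3 in central cortex (difference 0.67, adjusted p = 0.40).

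Fbln2, a fibulin of basement membranes and elastic tissue, ran from 19 to 220 (median 93.7) in medulla and from 361 to 680 (median 581) in whole cortex. The arrays did not overlap and the difference was -2.26 (SE 0.253, adjusted p = 1.1e-09). In sorted cells the same gene averaged 793 ± 136 (cortical) and 70.6 ± 39.6 (medullary), a difference of -3.19 (SE 0.299, adjusted p = 3.2e-11), also with no overlap. Whole cortex was not above the sorted cortical cells, 551 ± 104 against 793 ± 136. The 3 parts of the cortex had 171 ± 29.6, 204 ± 3.31 and 136 ± 37.7, all below the whole cortex arrays.

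The matricellular and adhesive glycoproteins held the largest medullary differences. Mgp, which encodes the calcification inhibitor matrix Gla protein, ran from 3330 to 5580 (median 4300) in medulla and from 169 to 530 (median 246) in whole cortex. The log2 fold change was 3.81 (SE 0.219, adjusted p = 3.8e-17), with no overlap. It also rose toward the capsule, with 511, 326 and 280 on subcapsular against 101, 85 and 78.6 on central arrays, apart by 1.76 (SE 0.335, adjusted p = 0.00077).

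Postn, which encodes periostin, was graded toward the medulla. It had 143, 138 and 148 on subcapsular, 175, 170 and 170 on central and 757, 710 and 742 on perimedullary arrays, and ran from 4380 to 5860 (median 4960) in medulla. No groups among these overlapped. Perimedullary cortex was 1.95 above central (SE 0.253, adjusted p = 1.8e-06), medulla was 3.67 above whole cortex (SE 0.166, adjusted p = 4.1e-20), and the subcapsular minus central difference of -0.22 was not called.

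Tnc, which encodes tenascin C, ran from 3400 to 4880 (median 4510) in medulla and from 1750 to 2480 (median 2070) in whole cortex, a difference of 1.07 (SE 0.203, adjusted p = 2.3e-05), or 1.79 with the mean of its probe sets. The 3 cortical parts had 590 ± 44.9, 778 ± 246 and 924 ± 232, so that whole cortex lay above all of its dissected parts. Sparc, which encodes a collagen-binding glycoprotein, averaged 1450 ± 346 in medulla and 542 ± 73.9 in whole cortex (difference 1.35), and 0.92 with the mean of its probe sets. Fn1, which encodes fibronectin, was 830 ± 108 against 418 ± 138; the arrays were apart but the difference of 0.99 was just under the size for a call.

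Over all matrix genes the whole cortex mean lay within those of the 3 parts for 23 (50%; 24.9% of all genes). It lay above them for 11 (23.9%, against 36.4% of all genes) and below them for 12 (26.1%, against 38.7%). Above were Col12a1, Lamb2, Lamc1, Nid2, Hspg2, Lum, Fbln1, Fbln2, Mfap5, Tnc and Timp3. Below were Col6a2, Col4a1, Col4a2, Col15a1, Col18a1, Lama4, Lama5, Fbln5, Fn1, Pcolce, Timp1 and Mmp2. No array of the 3 parts had a wide upper tail and 5 of the 7 whole cortex arrays did; the part of the arrays' shape in these levels was not tested.

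Collagen processing and crosslinking genes were all higher in medulla, and Pcolce and Loxl1 also on the capsule side. Pcolce, the enhancer of procollagen C-proteinase, had 633, 396 and 582 on subcapsular and 241, 148 and 154 on central arrays. They were apart by 1.45 (SE 0.285, adjusted p = 0.001), and 0.84 with the mean of the probe sets. In medulla it ran from 653 to 962 against 111 to 217 in whole cortex (difference 2.07, SE 0.187). Lox, which encodes lysyl oxidase, averaged 420 ± 43.6 in medulla and 93.4 ± 33.2 in whole cortex (difference 1.94), with 134 ± 11.3, 62.5 ± 19.6 and 130 ± 13.7 from the capsule inward. Loxl1, its relative for elastin, was 1.45 above central cortex (adjusted p = 0.027), a call lost when any of subcapsular arrays 1, 2 and 3 or central arrays 1 and 3 was left out (adjusted p 0.062 to 0.18).

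All 3 tissue inhibitors of metalloproteinases were higher in medulla, and Mmp2, the gelatinase that Timp2 both inhibits and helps to activate, was not. Timp1 ran from 319 to 524 (median 404) in medulla and from 5.31 to 109 (median 13.4) in whole cortex, apart by 3.06 (SE 0.274, adjusted p = 5.1e-12). Of the 7 whole cortex arrays 1 was above its median for Timp1, so this size depends on the offset. Timp3, which binds to the matrix, averaged 961 ± 212 against 288 ± 79.3 (difference 1.66), with medulla 1 at 521. On the capsule side none of the 4 was called, the largest difference being 0.37 for Timp3.

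Timp2 gave signal in the sorted cells too. It averaged 4200 ± 553 in medulla and 1690 ± 245 in whole cortex (difference 1.30, SE 0.0861, adjusted p = 1.7e-15), and 3530 ± 309 in sorted medullary against 1260 ± 82.5 in sorted cortical thymocytes (difference 1.47, SE 0.102, adjusted p = 1.2e-14). In the cortex it had 1670, 1440 and 1510 on subcapsular, 1800, 1820 and 1910 on central and 3020, 3120 and 3040 on perimedullary arrays. The order from capsule to medulla was complete for this probe set, though perimedullary minus central, 0.73, was under the size for a call. Of the 5 Timp2 probe sets that passed, 2 had this direction between subcapsular and central cortex.

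Between perimedullary and central cortex 2 matrix genes, Efemp1 and Postn, were higher and 0 lower, where 1.31% of all genes were higher and 0.0371% lower. Both genes were also higher in medulla. Perimedullary arrays lay wholly above central ones for 17 matrix genes and wholly below for 1 (13.9% and 14.8% of all genes). Macrophage markers summed to 14500 to 17000 in perimedullary and 8460 to 10900 in central cortex, with 1 of 8 higher and 1 lower, and medullary epithelial markers to 1980 to 2200 and 1390 to 1430, with 1 of 9 higher; their part was not tested. Comparing the 2 edges, perimedullary minus subcapsular, Postn was the 1 gene called higher (2.17, SE 0.253) and 9 were lower, where 2.91% of all genes were higher and 1.66% lower. The 9 were Col1a2 (-1.18), Col3a1 (-1.61), Col14a1 (-2.32), Col18a1 (-1.32), Lamb1 (-1.24), Nid1 (-1.59), Ogn (-3.40), Fmod (-1.72) and Mgp (-1.46). Col1a2 was lost without subcapsular array 1 (-0.98), and Lamb1 with the mean of its probe sets (-0.66) or plain-suffix probe sets (-0.85). Perimedullary arrays lay wholly above subcapsular ones for 5 matrix genes and wholly below for 24 (21.7% and 24.3% of all genes).

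Set directly against the subcapsular cortex, the medulla was higher for 18 matrix genes and lower for Ogn and Mmp2, where 22.2% of all genes were higher and 10.8% lower. The arrays lay wholly above for 23 and wholly below for 4 (32.3% and 24.7% of all genes). Mmp2 had 2100, 1500 and 2270 on subcapsular arrays and 633 to 848 (median 723) in medulla. They did not overlap, and the difference was -1.40 (SE 0.23, adjusted p = 2.1e-06). The largest medullary excesses were those of Postn (4.89), Mgp (3.51), Tnc (2.84), Timp3 (2.36), Timp1 (2.35), Col6a1 (2.32) and Bgn (2.17). Type I and type III collagen did not separate these regions: Col1a1 differed by 0.35, Col1a2 by 0.16 and Col3a1 by 0.43, and none was called. After quantile normalization, which moved the median of all genes from 0.16 to -0.07, 13 matrix genes were higher and 4 lower, and the share of called genes that were higher fell from 67.2% to 53.6% over all genes. Calls of Col12a1, Fbln1 and Lum were lost when 1 array was left out: subcapsular 1 (0.98) or 2 (0.86) or whole medulla 3, 4 or 7 for Col12a1, whole medulla 1 for Fbln1 and subcapsular 2 for Lum. Fbln1 turned to -0.24 with plain-suffix probe sets. With quantile normalization Lama4 (0.87), Lamb3 (0.99), Nid2 (0.91), Lum (0.92), Fbln1 (0.62) and Col12a1 (0.44) were not called.

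**Figure D4:**
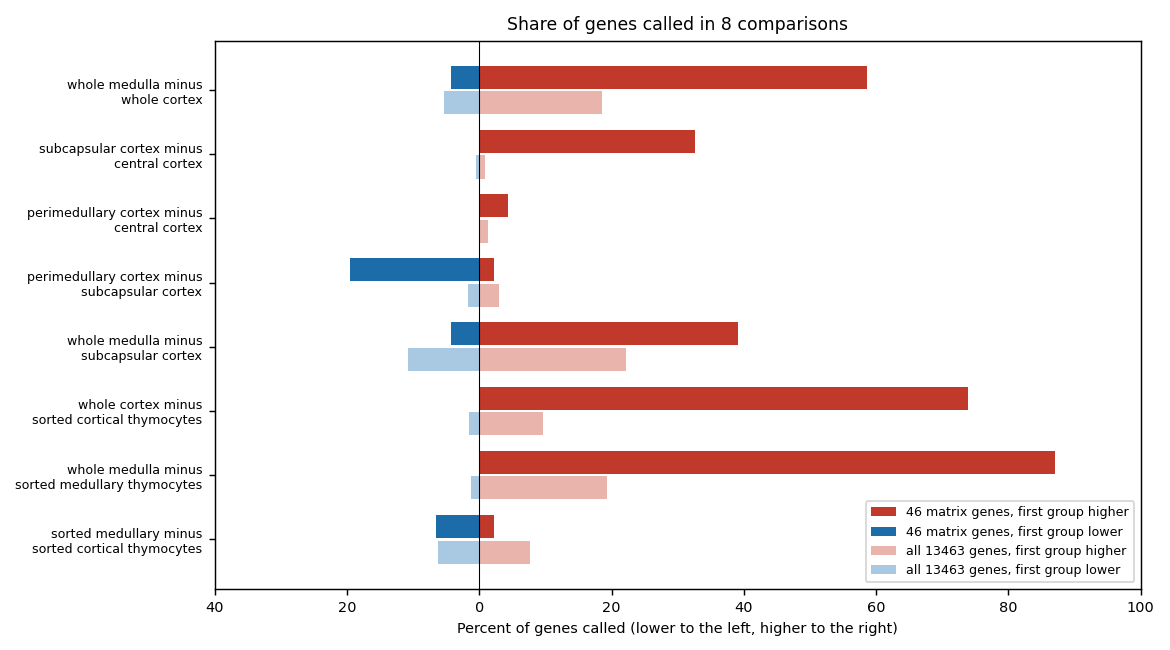
Percent of genes called lower (left of 0) and higher (right) in 8 comparisons, for 46 matrix genes (dark bars) and all 13463 genes tested (pale bars). Between subcapsular and central cortex 15 of 46 matrix genes were higher against 0.847% of all genes, and between the sorted thymocytes 1 of 46 against 7.67%.

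Sorted thymocytes gave little matrix signal. Tissue was higher than sorted cells for 34 matrix genes in the cortex and 40 in the medulla, with 0 lower in each, where 9.57% and 19.3% of all genes were higher and 1.51% and 1.2% lower. The arrays lay wholly above for 31 and 37 matrix genes and wholly below for 0 and 0, where 12.7% and 21.1% of all genes lay above and 7.39% and 7.77% below. RNA of tissue and of sorted cells came from different kits, and the effect of the kit and that of sorting cannot be told apart. Above the array median on every array were 40 of the 46 genes in subcapsular, 28 in central and 29 in perimedullary cortex, 23 in whole cortex and 33 in medulla, but 8 in the sorted cortical cells and 5 in the sorted medullary ones. The shares of all genes were 77.1%, 75.5%, 76%, 67.1% and 73.8% in the tissue groups in that order, and 68.6% and 67.4% in the sorted cells.

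On no array of the sorted cortical cells were 34 of the genes above the median, and on none of the sorted medullary cells 33, so the size of their differences depends on the offset and the probe set, and their order is not given. Tnc on the sorted arrays ran from 4 to 49.1 in cortical and from 5.37 to 67.3 in medullary thymocytes, far under the tissue values above, with differences of 5.59 (SE 0.222, adjusted p = 1.5e-21) and 6.27 (SE 0.222, adjusted p = 1.9e-23). With the mean of its probe sets these were 3.14 and 4.67. Dcn had differences of 5.31 and 5.81, and Postn of 2.95 and 6.04. Col3a1 had differences of 4.97 and 5.82, and of 1.84 and 2.60 with plain-suffix probe sets. The 6 genes not called in the medulla were Lamc1, Hspg2, Ogn, Fbln1, Fbln2 and Timp2. Lamc1, the common gamma-1 chain, had 245 ± 19.7 in sorted cortical thymocytes and 191 ± 82.5 in whole cortex, and Fbln1 149 ± 56.2 and 169 ± 59.1, so that neither exceeded the sorted cells in the cortex beyond the spread. Calls of Col12a1, Col1a1, Col6a2, Eln and Lox (cortex) and of Col12a1 and Mfap5 (medulla), none above 1.16, were lost when single arrays were left out.

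**Figure D5:**
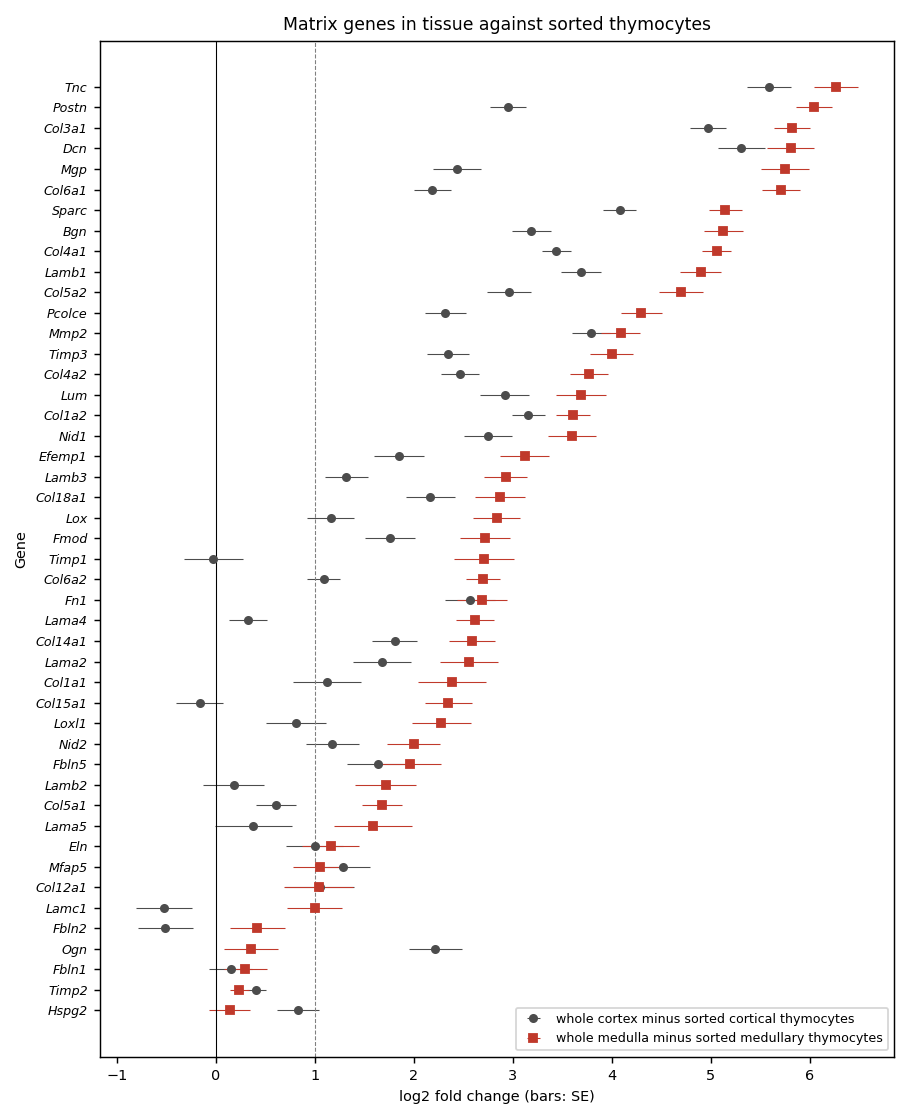
Log2 fold change with SE of 46 matrix genes in whole cortex against sorted cortical thymocytes (circles) and in whole medulla against sorted medullary thymocytes (squares), ordered by the medullary value. Tnc has 5.59 and 6.27, and Fbln2, Fbln1, Timp2 and Hspg2 lie between -1 and 1 in both.

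Between sorted medullary and sorted cortical thymocytes 1 matrix gene was higher (Timp2) and 3 lower (Fbln2, Col15a1 and Lamb3), where 7.67% of all genes were higher and 6.28% lower. The arrays lay wholly above for 2 and wholly below for 4 (16.7% and 16.3% of all genes). Col15a1 had 215 ± 48.1 in cortical and 63.5 ± 23.2 in medullary cells, a difference of -1.44 (SE 0.255, adjusted p = 1.5e-05). Lamb3 had 176 ± 16.6 and 78.2 ± 39, a difference of -1.07 that was -0.77 without sorted medullary array 3.

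The medulla minus cortex difference of tissue exceeded that of the sorted cells for 23 matrix genes and was below it for Ogn (-1.85, SE 0.384), where 12.6% of all genes were above and 2.22% below. The largest were Col6a1 (3.52, SE 0.266), Mgp (3.31, SE 0.34), Postn (3.08, SE 0.257), Timp1 (2.73, SE 0.424, or 1.79 on the arrays without a wide upper tail), Col15a1 (2.51, SE 0.334) and Lama4 (2.30, SE 0.271). That of Col15a1 combined a difference of 1.06 in tissue with one of -1.44 in the sorted cells. Lamb2, Lamb3 and Lamc1 were among the 23 but were not called between medulla and whole cortex. Timp2 and Fbln2, whose differences in the sorted cells ran the same way as in tissue, were not called. Those of Col1a1, Col5a1 and Sparc (1.27, 1.08 and 1.08) were lost when single arrays were left out.

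Other genes of the matrix were taken from a list of 160, of which 110 were tested. In medulla 64 were higher than in whole cortex and 2 lower (median 1.13), where 18.5% of all genes were higher and 5.38% lower. On the capsule side 4 were higher than in central cortex and 1 lower (median 0.17), where 0.847% of all genes were higher and 0.446% lower. The medullary genes included 19 of 26 matrix receptors, 16 of 25 glycoproteins and proteoglycans, 12 of 20 proteases and inhibitors and 6 of 11 other collagens. Itgb8, an integrin subunit that helps to activate TGF-beta, averaged 1120 in medulla and 22.9 in whole cortex (4.48, SE 0.289), Itgb3 1340 and 73.4 (3.90, SE 0.216), and Tgfbi, a matrix protein induced by TGF-beta, 2970 and 228 (3.59, SE 0.179). On the capsule side the 4 were Smoc2 (1.70, SE 0.359), Ltbp3 (1.45, SE 0.22), Spon2 (1.35, SE 0.421) and Plat (1.09, SE 0.295). Smoc1, a relative of Smoc2 that also binds calcium in basement membranes, ran the other way, at 153 in subcapsular and 408 in central cortex (-1.26, SE 0.244).

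Some markers of stromal and adjoining cells were higher on the capsule side, but most of those counted below were not. Car3, an adipocyte gene, had 445, 743 and 1420 on subcapsular and 4.52, 22.2 and 16.2 on central arrays, and the fibroblast genes Pdgfra, Dpt and Pi16 were also higher there (1.65, 1.57 and 1.75). Of the tested markers, 3 of 8 of fibroblasts and 1 of 5 of adipocytes were higher at the capsule side. So were 1 of 7 of endothelium and 0 of 8 of pericytes and smooth muscle, against 0.847% of all genes. The 9 fibroblast markers with a probe set summed to 25200 to 26900 in subcapsular and 25800 to 26100 in central cortex, sums led by genes such as Thy1 that thymocytes also express. Adipocyte sums were 4510 to 5390 and 3640 to 4590, and Cidec was below the array median on every array of both. Of the mesothelial markers, Msln, Lrrn4, Wt1 and Krt19 were below the median on all subcapsular arrays and Upk3b had 92.6, 8.29 and 2.23. The part of these cells in the capsule-side differences was not tested.

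In medulla 5 of 8 pericyte and smooth muscle markers were higher than in whole cortex, where 18.5% of all genes were higher and 5.38% lower. The sums of these markers were 16700 to 20100 against 1830 to 3200, with Cnn1 below the median on every array of both. Rgs5, a pericyte gene, averaged 11300 against 600 (4.21, SE 0.156), Acta2 4110 against 515 (2.95, SE 0.14) and Tagln 1590 against 82.8 (4.01, SE 0.255). Fibroblast markers were higher in 5 of 8 and lower in 1 (sums 20600 to 24700 against 33600 to 39800). Endothelial ones were higher in 3 of 7 (1890 to 2570 against 896 to 1570, Tie1 below the median throughout). Mesothelial ones were higher in 3 of 4 (1070 to 1700 against 158 to 412). Of the 6 mesothelial markers with a probe set, Upk3b and Wt1 were below the median on every array of both. Lrrn4 was below it on every medulla array. Medullary epithelial markers were higher in 8 of 9. The part of these cells in the medullary differences was not tested.

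The counts were near those of all arrays within arrays of a like kind. On the arrays with a wide upper tail 27 matrix genes were higher in medulla than in whole cortex and 2 lower, and on those without it 28 and 1. Those without it were only arrays 6 and 7 of each, and whole cortex 7 had a parathyroid hormone signal. The genes differed in part: on the arrays without it the differences of Col1a1 (0.99), Col5a1 (0.92), Col15a1 (0.34), Col18a1 (0.82), Lama5 (0.66), Nid2 (0.82) and Ogn (-0.62) were not called. Without whole cortex 2 and 7, the arrays with parathyroid hormone signal, 25 were higher and 2 lower.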

How the data were processed

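Affymetrix signals of 33 thymus arrays were used as deposited: array intensity on a linear scale, made by the authors with Affymetrix Expression Console 1.0 and MAS5, per the submitters' processing notes. Probe sets were named from GEO's platform annotation; of 45037, 34945 have 1 symbol, 932 several and 9160 none. A constant of 26.2, the middle value of the 33 arrays' 25th percentiles, was added before log2, which makes fold changes of weak signals smaller than the ratios of means. Probe sets above their array's median on at least 3 arrays were kept, and the one with the highest mean stood for its gene.

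The 33 arrays entered a single limma fit (version 3.58.1, R 4.3.3), which estimated 7 group means and left 26 residual degrees of freedom; adjusted p-values are limma's, 2-sided, with Benjamini-Hochberg adjustment over 13463 genes. SE is the fit's standard error. The matrix genes, the lists and the promoters shown were chosen with earlier results of these data known. Any of the 50 genes may be named; those with the largest called differences are given in full, with those just under the threshold, and of other lists up to 3 per comparison. The fit was tested on simulated data. Alternatives tried were another offset, quantile normalization, 2 other filters, other probe-set rules, array weights, fits restricted to the groups of a comparison, a replicate block, arrays split by a wide upper tail, each array left out in turn and, added after seeing the data, whole cortex arrays with parathyroid hormone signal left out. The number of arrays limits the precision.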

Additional observations from a re-analysis of the deposited data

Results flagged for a closer look

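Among the matrix genes, 13 of 184 sets of arrays of one gene and group (7.07%) had an array far from the rest by Dixon's test, where chance flags about 1 in 20 groups. In dissected tissue these were low arrays: Col12a1 in medulla 1 (39.6, the others 110 to 197), Timp3 in medulla 1 (521, the others 953 to 1200), Fbln5 in medulla 4 (18.8, the others 103 to 223), Col18a1 in whole cortex 4 (30.3, the others 140 to 242) and Lamc1 in whole cortex 5 (12.7, the others 190 to 248).

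In sorted cortical thymocytes they were Col18a1 in array 2 (40.3), Lama2 in array 3 (38.3), Efemp1 in array 5 (11.8), Mgp in array 2 (2.33) and Timp2 in array 4 (1110, the others 1280 to 1310). In sorted medullary thymocytes they were Lamb3 in array 3 (15.8, the others 76.4 to 116), Fmod in array 5 (31.2) and Loxl1 in array 2 (47.7).

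The medulla minus cortex difference of tissue differed from that of sorted thymocytes by limma's interaction term, higher for 23 matrix genes and lower for 1, Ogn.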

How the results depend on the processing

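Of the 29 matrix genes called between medulla and whole cortex, 18 kept their call under all alternatives; so did 11 of the 15 called between subcapsular and central cortex and both called between perimedullary and central cortex. The counts that moved by over 1.5 times were these. With the stricter filter (29 matrix genes tested) the lower count was 1 for medulla minus whole cortex, 1 for medulla minus subcapsular cortex and 0 for the interaction, and medulla minus sorted medullary thymocytes had 26 higher. With only plain-suffix probe sets (41 tested) the lower count was 1 for medulla minus whole cortex, 2 for the interaction and 1 between the sorted thymocytes, where 2 were higher. With the smaller offset of 6.55, 4 were higher between the sorted thymocytes. Quantile normalization gave 4 lower for medulla minus subcapsular cortex, and moved the median of all genes for medulla minus whole cortex from 0.11 to -0.026. The arrays without a wide upper tail gave 1 lower for medulla minus whole cortex. Leaving out each array in turn gave 1 to 2 higher for perimedullary minus subcapsular cortex (2 without subcapsular 1) and 1 to 2 between the sorted thymocytes (2 without sorted cortical 4 or sorted medullary 5). Fbln1 reversed for medulla minus subcapsular cortex with plain-suffix probe sets (-0.24). The causes were not tested beyond the fewer genes or arrays each uses.

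With the replicate block the counts were 27 and 2 for medulla minus whole cortex and 15 and 0 for subcapsular minus central cortex; 193 of 196 results kept their call, the others being Col12a1 (0.82) and Lum (0.88) for medulla minus subcapsular cortex and Col12a1 (0.94) for medulla minus sorted medullary thymocytes. Same-numbered arrays of medulla and whole cortex correlated in their deviations from -0.0326 to 0.256, over 0.1 in 4 of 7 pairs, so numbers were not taken to pair arrays. For medulla and whole cortex 3 of 7 arrays correlated best with their own number, a hint from the data only. The number of arrays and signals near the background limit the precision.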
